A study of Bos taurus with 39 samples.

Results

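The nuclear-encoded subunits of respiratory complex I were measured as RNA in somatic cells from the milk of 39 Holstein dairy cows. The members are all genes of the deposited table whose symbol is NDUFA, NDUFB, NDUFC, NDUFS or NDUFV followed by a number, and NDUFAB1. They number 38 of 21590 genes, and all 38 passed the filter on low values that kept 10636 genes, so none was lost. By their labels 22 cows are LOW RFI and 17 are HIGH RFI, RFI being read here as residual feed intake (feed eaten above the amount predicted for an animal's production and body weight), by which LOW RFI cows are the more efficient ones. The groups share breed and tissue, the labels name no treatment, age or stage of lactation, and the question of the series is which genes differ between these extremes of feed efficiency. Each cow gave 1 library, the cows are the replicates, and names such as HIGH RFI 11 only number the cows within a group.

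Complex I takes electrons from NADH, passes them along a chain of flavin and iron-sulphur centres in an arm that reaches into the mitochondrial matrix, and hands them to ubiquinone while an arm in the inner membrane pumps protons. The core subunits of the matrix arm are encoded in the nucleus and those of the membrane arm in the mitochondrial genome, and a shell of nuclear-encoded accessory subunits surrounds both. Much of what is known of its structure came from bovine heart mitochondria. In milk, the cells are a mixture of neutrophils, macrophages, lymphocytes and shed mammary epithelium. In such bulk samples, fewer cells of a type and less RNA per cell cannot be told apart.

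Values are RPKM, reads scaled by gene length and by the mapped reads of the library, which puts genes on 1 scale. Levels of the members still ran with gene length, as given below, so their order is one of RPKM. Between 41637742 and 204905052 mapped reads lay behind a library (median 89545831), and the member with the fewest reads in any cow, NDUFA12, still had 531. Of the marker lists, 12 of 13 neutrophil, 13 of 13 macrophage, 13 of 13 mammary epithelium and 10 of 10 T cell genes had values, and 0 of these were at 0 in every cow. Their summed levels differed widely within both groups, for neutrophils between 31.8 and 4135 RPKM in LOW RFI cows and between 22.8 and 6673 RPKM in HIGH RFI cows, and for macrophages between 66.4 and 11045 RPKM in LOW RFI cows and between 72.0 and 9511 RPKM in HIGH RFI cows. RNA of 7 milk protein genes (4 caseins, LALBA, PAEP and GLYCAM1) took 0.225% to 68.7% of all RPKM in LOW RFI cows (median 22.5%) and 0.103% to 80.1% in HIGH RFI cows (median 8.52%). Since these transcripts enter the denominator of every RPKM, members are also given on values rescaled without the milk protein genes. LOW RFI 18 and LOW RFI 20 (0.850 and 0.754) and, among the other group, HIGH RFI 11 and HIGH RFI 17 (0.818 and 0.759) stood apart, with the lowest median correlations with the other libraries, and results are also given without them.

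Transcripts of all 38 members were found in every cow, and the medians of all 38 lay above the median level of all tested genes. The median over cows ran between 11.7 RPKM for NDUFS1 and 145.6 RPKM for NDUFA1, 20 members had a median of 50 RPKM or more, and the median of the members' medians was 54.7 RPKM, against 6.97 RPKM over all tested genes. Summed over the members, LOW RFI cows had 1366 to 2798 RPKM with a median of 2244, and HIGH RFI cows had 1005 to 3434 RPKM with a median of 2142. The HIGH RFI group held both the lowest cow, HIGH RFI 11, and the highest, HIGH RFI 10, so its range enclosed that of the LOW RFI group. As a share of RPKM outside the milk protein genes, the members made up 0.381% to 0.807% in LOW RFI cows (median 0.583%) and 0.260% to 0.953% in HIGH RFI cows (median 0.520%), where the highest cow was HIGH RFI 17. The order of levels was loose. In 2 of the 37 pairs of neighbours in that order, NDUFA1 over NDUFA2 and NDUFA12 over NDUFS4, the mean log2 gap exceeded its SD over cows. NDUFA1 was above NDUFA2 in 39 of 39 cows, by 0.50 ± 0.24 on the log2 scale (SD, n = 39). NDUFA2 was above NDUFB7 in only 27 of 39. Shorter genes tended to have higher RPKM (r = -0.53, rho = -0.48 over the 38 members, between log2 gene length and log2 median RPKM, from 335 bp for NDUFB1 to 3338 bp for NDUFS1), a description over genes that are not independent.

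**Figure D1:**
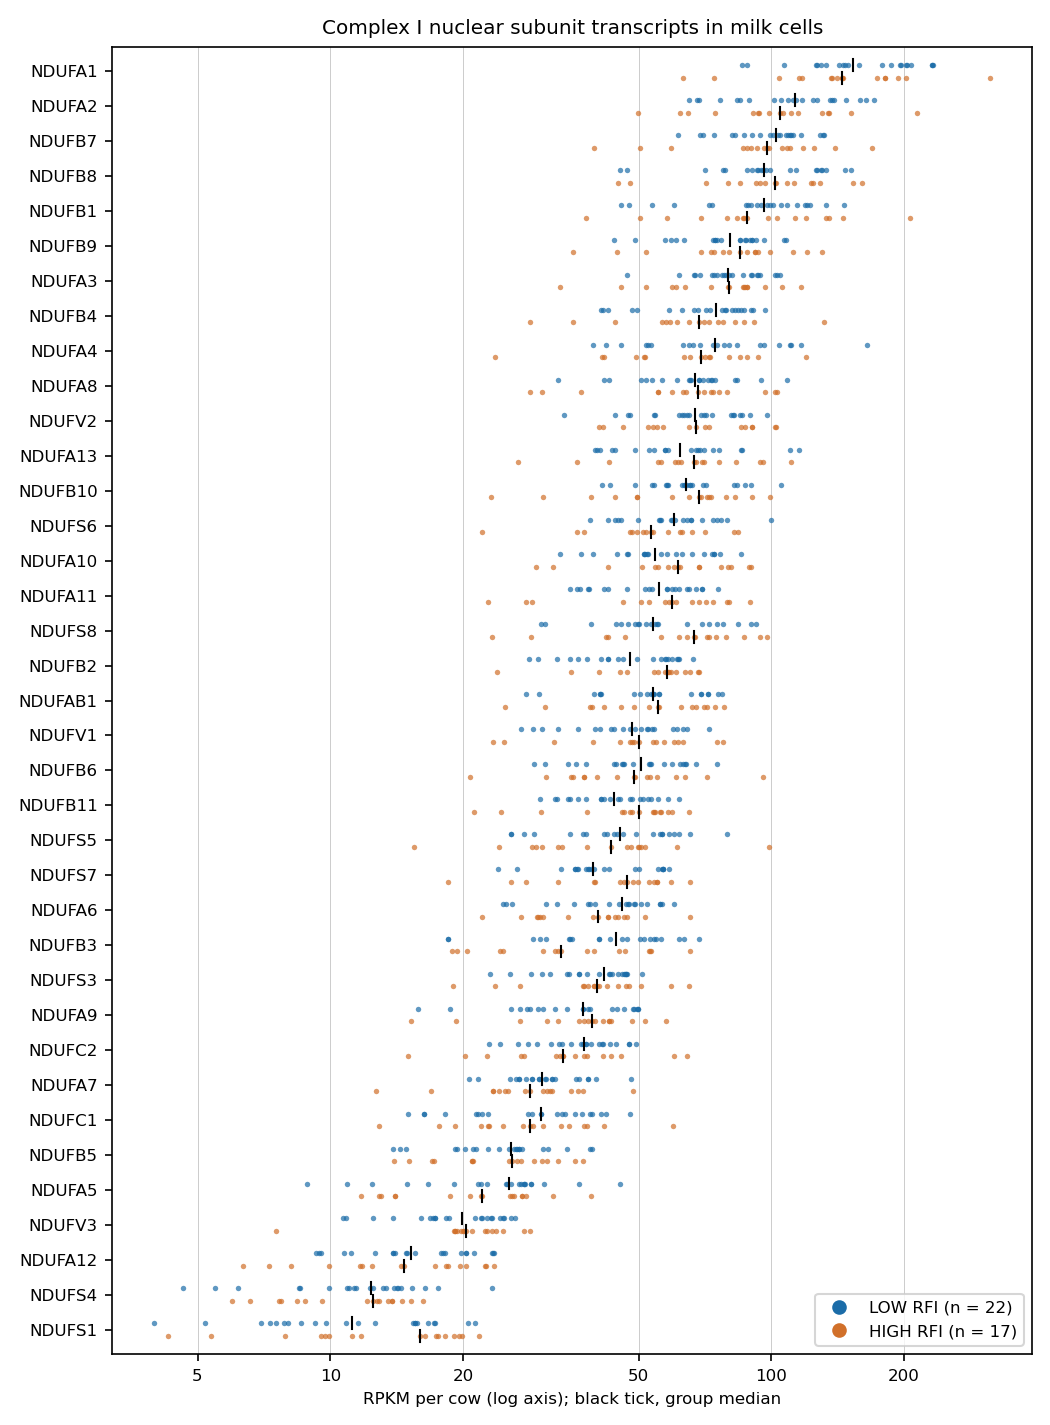
RPKM of 37 complex I members in each of 39 cows on a log axis, 1 point per cow, with LOW RFI cows (blue, n = 22) above HIGH RFI cows (orange, n = 17) for each gene and a black tick at the group median. Genes run in order of their median level, between 145.6 RPKM for NDUFA1 and 11.7 RPKM for NDUFS1, and the ranges of the groups overlap for all 37 genes drawn.

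The core subunits of the matrix arm, which carry the flavin and most of the electron path, spanned much of that order. NDUFS1, which holds several of the iron-sulphur clusters, had the lowest level and the widest spread of all members (SD of log2(RPKM + 1) 0.61). It ran between 3.99 and 21.2 RPKM in LOW RFI cows (median 11.2) and between 4.28 and 21.8 RPKM in HIGH RFI cows (median 16.0). Both groups reached from about the same low to about the same high, and 5 of 22 LOW RFI cows lay above the HIGH RFI median. NDUFS3, a core subunit that carries no redox centre of its own, was at 23.1 to 50.9 RPKM in LOW RFI cows (median 41.8) and 19.0 to 64.9 RPKM in HIGH RFI cows (median 40.3). Core subunits between these levels or above them were NDUFV1, the site of NADH oxidation (median over all cows 48.9 RPKM), NDUFV2, which carries an iron-sulphur cluster (67.5 RPKM), and NDUFS7 and NDUFS8, which hold the clusters nearest to ubiquinone (42.8 and 56.2 RPKM).

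Among the 9 accessory subunits of the matrix arm, levels differed more than among the core. NDUFA2, a small subunit with a thioredoxin-like fold, was the second most abundant member, at 65.2 to 170.7 RPKM in LOW RFI cows (median 113.0) and 49.9 to 214.2 RPKM in HIGH RFI cows (median 104.6). NDUFS4, loss of which causes a mitochondrial encephalopathy in mouse and human, was among the lowest, at 4.64 to 23.2 RPKM in LOW RFI cows (median 12.4) and 5.98 to 16.3 RPKM in HIGH RFI cows (median 12.5). NDUFA12, which takes the place of the assembly factor NDUFAF2 late in assembly, was at 9.30 to 23.5 RPKM in LOW RFI cows (median 15.3) and 6.34 to 23.5 RPKM in HIGH RFI cows (median 14.7). The groups overlapped for all of these, with the wider range in HIGH RFI cows for NDUFA2 and in LOW RFI cows for NDUFS4. NDUFS6, a zinc-binding subunit, was at 38.9 to 99.8 RPKM in LOW RFI cows (median 60.04) and 22.0 to 84.0 RPKM in HIGH RFI cows (median 53.3), and 16 of 22 LOW RFI cows lay above the HIGH RFI median. NDUFA7 was at 20.6 to 48.2 RPKM in LOW RFI cows (median 30.2) and 12.7 to 48.5 RPKM in HIGH RFI cows (median 28.3). NDUFV3, a subunit at the tip of the arm next to NDUFV1 and NDUFV2, was at 10.7 to 26.2 RPKM in LOW RFI cows (median 19.9) and 7.55 to 28.4 RPKM in HIGH RFI cows (median 20.3). NDUFV3 had the narrowest spread of all members on rescaled values (SD 0.17, against 0.37 as deposited). Of the others, NDUFA9, which lies near the ubiquinone site, had a median over all cows of 38.4 RPKM, NDUFA6, which docks the acyl carrier NDUFAB1, 42.7 RPKM, and NDUFA5 25.1 RPKM.

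NDUFAB1, the mitochondrial acyl carrier protein, serves complex I as a subunit and also carries the growing chain in mitochondrial fatty acid synthesis. It was at 27.8 to 77.5 RPKM in LOW RFI cows (median 53.9) and 24.8 to 78.3 RPKM in HIGH RFI cows (median 55.3), with nearly the same range in both groups.

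The accessory subunits of the membrane arm included the most abundant member. NDUFA1, a short protein with a single membrane helix in the part next to the matrix arm, was at 85.7 to 232.8 RPKM in LOW RFI cows (median 153.5) and 63.0 to 313.4 RPKM in HIGH RFI cows (median 144.2). The range of the HIGH RFI cows again enclosed that of the LOW RFI cows, with HIGH RFI 11 lowest and HIGH RFI 10 highest. The other 8 subunits of this proximal part had medians over all cows between 28.8 RPKM (NDUFC1) and 80.05 RPKM (NDUFA3), with NDUFA13, also known as GRIM-19, at 65.7 RPKM, NDUFA10 at 58.2 RPKM and NDUFA8 at 68.0 RPKM. In the distal part, NDUFB7, which faces the intermembrane space, was at 61.3 to 131.9 RPKM in LOW RFI cows (median 102.2) and 39.6 to 168.7 RPKM in HIGH RFI cows (median 97.8). NDUFB3, a small membrane subunit, was at 18.5 to 68.5 RPKM in LOW RFI cows (median 44.5) and 18.9 to 65.4 RPKM in HIGH RFI cows (median 33.3), and 17 of 22 LOW RFI cows lay above the HIGH RFI median. NDUFB2, another small membrane subunit, was at 28.2 to 66.6 RPKM in LOW RFI cows (median 47.9) and 23.9 to 68.6 RPKM in HIGH RFI cows (median 57.9), and 6 of 22 LOW RFI cows lay above the HIGH RFI median. The other 8 distal subunits had medians between 25.8 RPKM (NDUFB5) and 97.1 RPKM (NDUFB8).

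NDUFA4 carries a complex I name, but its protein is now counted as a subunit of complex IV, cytochrome c oxidase. It was at 39.3 to 165.0 RPKM in LOW RFI cows (median 74.5) and 23.6 to 119.8 RPKM in HIGH RFI cows (median 69.2). Its highest cow, LOW RFI 12, had 6.98 times the level of its lowest, HIGH RFI 11, the widest such range of the 38 members, and for NDUFB5, with the narrowest, the factor was 2.82. On rescaled values NDUFA4 had the widest spread of all members (SD 0.71, against 0.53 as deposited).

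The spread between cows was of similar size for most members. The coefficient of variation of RPKM reached 40.6% (NDUFS1), with a median of 27.9%. The SD of log2(RPKM + 1) had a median of 0.43 over the members, against 0.60 over all tested genes, and 37 of 38 members were below that median of all genes. This depended on the scale. Of the 38 members, 31 were below the median of all genes after rescaling without milk protein genes (0.44 against 0.50), and 17 were after quantile normalization (0.48 against 0.45). A few cows set the extremes. HIGH RFI 11 was lowest for 21 members and HIGH RFI 17 for 10, while HIGH RFI 10 was highest for 17 and HIGH RFI 4 for 9. In all, the lowest cow was a HIGH RFI cow for 32 members and the highest cow a HIGH RFI cow for 28. The same counts over all tested genes were not made, so these cannot be read as particular to the members. HIGH RFI 17 also had the fewest features at 1 RPKM or more of all cows (6620). HIGH RFI 11 had the highest neutrophil score of all cows (8.48, the mean log2(RPKM + 1) of the neutrophil markers, against a median of 3.95 over the 39 cows), and HIGH RFI 17 had the lowest (1.25) and the highest milk protein share (80.1%). These extremes are those of values as deposited. On rescaled values HIGH RFI 17 had the highest mean log2(RPKM + 1) of the members (6.38), and HIGH RFI 11 still had the lowest (4.64). The part of cell composition in these extremes was not tested.

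Most members varied together over the cows. Of 703 pairs of members, 532 had a correlation above 0.5 on log2(RPKM + 1), with a median of 0.67, and the closest pair was NDUFA8 with NDUFB9 (r = 0.95). NDUFC2 and NDUFA8 followed the mean of the other members most closely, each with r = 0.95. The members that followed it least were NDUFS1 (0.43), NDUFA4 (0.46), NDUFV3 (0.47) and NDUFS4 (0.49). NDUFA4 and NDUFV3 were the pair farthest apart, at r = -0.31. With rescaling, NDUFA4 and NDUFS4 followed the others (0.80 and 0.81), while NDUFS1 and NDUFV3 did not (both 0.06) and NDUFA9 was at 0.44. These correlations describe 39 libraries that share depth and cell mixture with every gene in them, and no test was made of them.

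No member differed between LOW RFI and HIGH RFI cows beyond the spread between cows. Limma-trend on log2(RPKM + 1) called 0 of 38 members at an adjusted p under 0.05, and 0 of all 10636 tested genes (0%). At an unadjusted p under 0.05 there were 0 members and 633 genes (5.95%). With array quality weights, which give outlying libraries less weight, limma called 2213 genes (20.8%), of which 2193 were lower in LOW RFI cows, and still 0 members. NDUFB2 and NDUFS1 then had an unadjusted p under 0.05, and the smallest adjusted p of a member was 0.0619. Limma-voom on reads recovered from the RPKM called 0 genes. These p-values measure the spread between cows with 1 library each.

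The largest differences were all well below 1 on the log2 scale. NDUFB3 averaged 43.8 ± 13.8 RPKM in LOW RFI cows (SD, n = 22), against 37.1 ± 13.9 RPKM in the HIGH RFI group (SD, n = 17). On the log2 scale, LOW RFI minus HIGH RFI, it differed by 0.25 (SE 0.17, with an unadjusted p of 0.156 and an adjusted p of 0.769 by limma). NDUFA4 averaged 78.9 ± 29.9 RPKM in LOW RFI cows (SD, n = 22), against 66.9 ± 23.0 RPKM in the HIGH RFI group (SD, n = 17), and its log2 difference was 0.23 (SE 0.17). NDUFS6 averaged 61.2 ± 14.5 RPKM in LOW RFI cows (SD, n = 22), against 55.2 ± 15.7 RPKM in the HIGH RFI group (SD, n = 17), and its log2 difference was 0.17 (SE 0.14). In the other direction, NDUFB2 averaged 48.2 ± 11.7 RPKM in LOW RFI cows (SD, n = 22), against 54.1 ± 12.1 RPKM in the HIGH RFI group (SD, n = 17), and its log2 difference was -0.16 (SE 0.13, with an unadjusted p of 0.223 and an adjusted p of 0.770 by limma). NDUFS1 averaged 12.0 ± 4.99 RPKM in LOW RFI cows (SD, n = 22), against 13.9 ± 5.46 RPKM in the HIGH RFI group (SD, n = 17), and its log2 difference was -0.19 (SE 0.20). NDUFV3 was at -0.11 (SE 0.13). The groups overlapped for all 38 members, and the 95% intervals of the log2 differences all included 0, and reached a median of 0.30 to either side. NDUFS1 had the lowest bound, at -0.58, and NDUFB3 the highest, at 0.59, so that in this fit a larger difference is outside the interval of every member. The bounds moved with the setting. They were -0.40 and 0.78 after rescaling, -0.34 and 0.88 after quantile normalization, and -0.60 and 0.64 with month as a factor.

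In direction, 22 members had a higher fitted level in LOW RFI cows and 16 in HIGH RFI cows, with a median log2 difference of 0.020. Over all tested genes the median was -0.12 and 27% were higher in LOW RFI cows, so that the members' median was 0.14 relative to all genes and 36 of 38 members lay above the median of all genes. NDUFB2 and NDUFS1 were the other members. By role, 0 of the 6 core subunits of the matrix arm described above were higher in LOW RFI cows, and 5 of these 6 were after either rescaling or quantile normalization. As deposited, the fitted level was higher in LOW RFI cows for 7 of 9 accessory subunits of that arm, 6 of 9 in the proximal and 6 of 11 in the distal membrane arm, NDUFAB1 (0.016) and NDUFA4. These counts describe the fitted values, and no member behind them passed. They moved with the scale, since 36 of 38 members were higher in LOW RFI cows after quantile normalization (median 0.16, against 0.017 over all genes) and 35 after rescaling without milk protein genes (median 0.12, against -0.025). With the month in the column names as a factor 18 were higher (median -0.017, against -0.0056 over all genes), and with milk protein, neutrophil and macrophage scores as covariates 18 were (median -0.0057, against -0.0014). Without the 4 libraries that stood apart 16 were higher (median -0.018, against -0.14), no member passed, and NDUFB2 had an unadjusted p of 0.0486. In 8 libraries, 7 of them LOW RFI, an extra number follows that of the animal in the deposited column name, and without these marked libraries 27 were higher (median 0.049, against -0.016). Members above the median of all genes numbered 36 after rescaling or quantile normalization and 32 without the 4 libraries that stood apart. They numbered 27 without the marked libraries, 23 without the filter on low values, and 18 with either month as a factor or marker scores. The neutrophil score averaged 4.11 ± 1.61 in LOW RFI cows (SD, n = 22), against 5.11 ± 1.89 in the HIGH RFI group (SD, n = 17), and the macrophage score 5.52 ± 1.34 in LOW RFI cows (SD, n = 22), against 5.91 ± 1.24 in the HIGH RFI group (SD, n = 17). Their part in the members' differences was not tested beyond the fit with covariates.

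**Figure D2:**
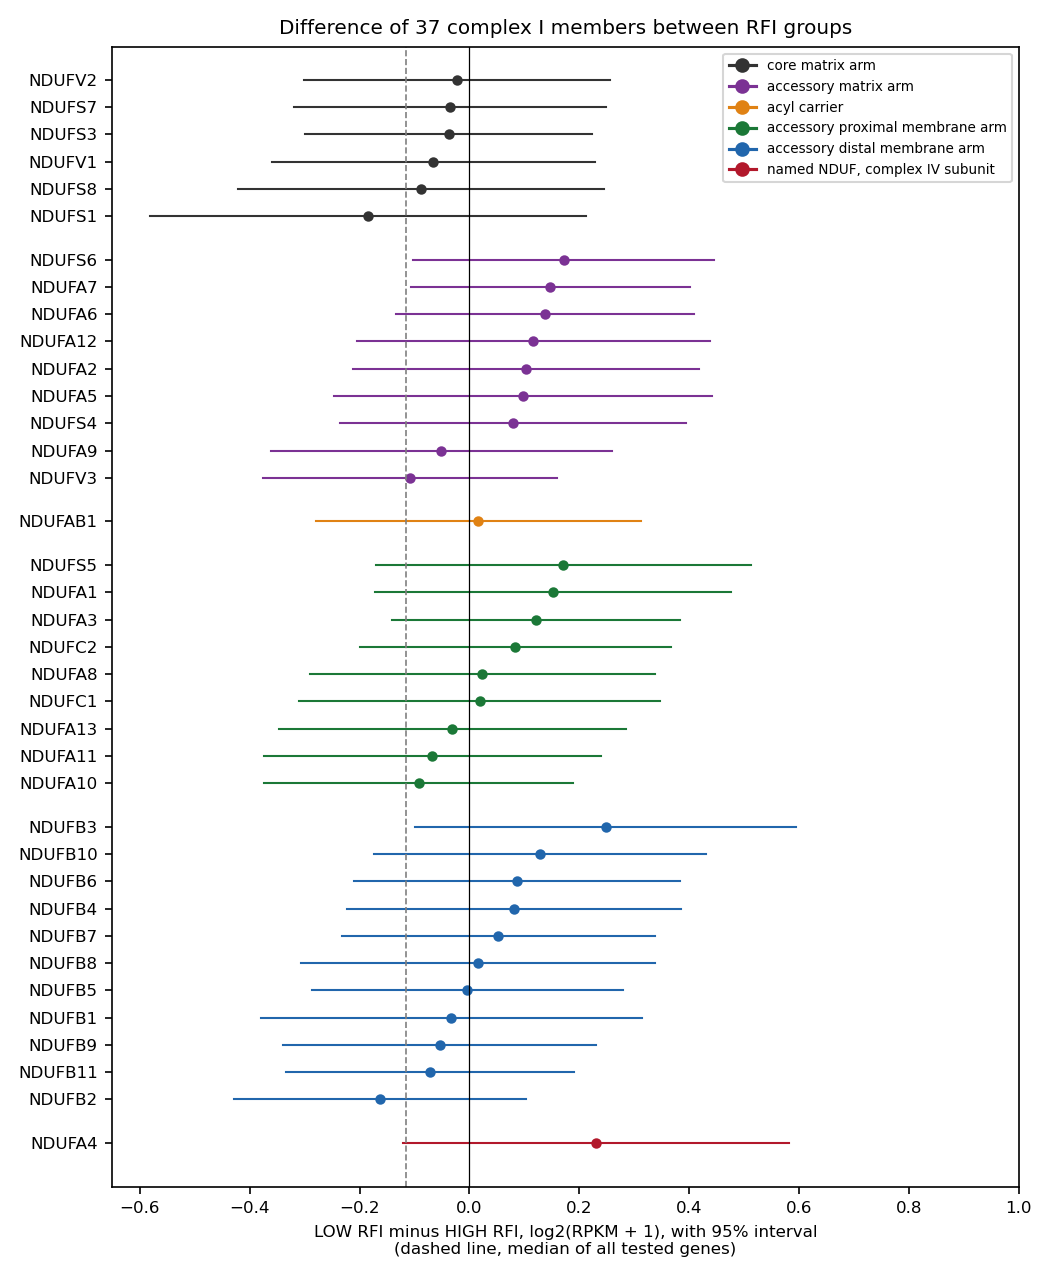
Log2 difference of 37 members, LOW RFI minus HIGH RFI, with its 95% interval from limma-trend on log2(RPKM + 1) in 22 LOW RFI and 17 HIGH RFI cows, coloured by the place of the subunit in the complex. All 37 intervals include 0, and 35 of 37 points lie right of the dashed line at -0.12, the median of all tested genes.

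Month and group were partly bound together, as all 6 cows tagged February 2020 and both tagged May 2020 were HIGH RFI. In months with 2 or more cows per group, the members went different ways. In September 2019, with 4 LOW RFI and 2 HIGH RFI cows, 15 members were higher in LOW RFI cows and the median log2 difference was -0.057 (-0.20 over all genes). In January 2020, with 2 LOW RFI and 2 HIGH RFI cows, 1 member was higher in LOW RFI cows, NDUFS1 at 0.30, and the median was -0.50 (0.086 over all genes). HIGH RFI 10, the cow with the highest level of 17 members, was one of those 4. So was LOW RFI 4, with 1478 RPKM summed over the members, against a median of 2220 over all cows, and a neutrophil score of 8.15. The part of single cows in the January median was not tested. In June 2020, with 6 LOW RFI and 3 HIGH RFI cows, 38 were higher and the median was 0.35 (0.31 over all genes). That June value leaned on HIGH RFI 17, without which 26 were higher and the median was 0.14 (-0.14 over all genes). LOW RFI 20, also tagged June 2020 and also among the libraries that stood apart, with a milk protein share of 66.8%, was kept there.

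Across cows, the RPKM of many members fell as milk protein RNA took a larger share. With Benjamini-Hochberg adjustment over the 38 members and a permutation test of Pearson's r with 100000 resamples, 16 members were related to the milk protein share over the 39 cows, 15 of them negatively, and 12 of the 16, 11 of them negatively, also passed by Spearman's rho. The share of members that fell was below that of all genes. In limma-trend with the share as a continuous term, fitted and adjusted over all 10636 tested genes, 17 of 38 members fell with it, against 81% of all genes, and 3 members rose, against 6.39% of all genes. NDUFV3 had the closest relation, with r = -0.87 (rho = -0.78, both with permutation p = 1e-05, the smallest that the resamples can give, adjusted p = 9.5e-05 for r). NDUFV3 was at 7.55 RPKM in HIGH RFI 17, with a milk protein share of 80.1%, and at 24.6 RPKM in HIGH RFI 12, with a share of 0.103%. NDUFA9 (r = -0.75, rho = -0.67), NDUFS1 (r = -0.70, rho = -0.65), NDUFB2 (r = -0.65, rho = -0.55) and NDUFAB1 (r = -0.62, rho = -0.54) followed. By permutation NDUFA4 alone passed in the other direction (r = 0.47, permutation p = 0.00268, adjusted 0.00849, and rho = 0.58, permutation p = 0.00012, adjusted 0.00114), and limma also called NDUFA7 and NDUFS4 there (adjusted p = 0.0352 and 0.0426). Each of the 16 kept its sign without HIGH RFI 17 and LOW RFI 18, the cows farthest from the median share, with r = -0.82 for NDUFV3 and 0.52 for NDUFA4. Within LOW RFI cows 17 members passed, all negatively and 16 also by rho, and limma there called 19 members negatively (75.5% of all genes) and 1 positively (5.95%). Within the 17 HIGH RFI cows 1 passed by r, NDUFV3 (r = -0.84, permutation p = 0.00109, adjusted 0.0414), and none by rho, where NDUFV3 was at -0.57 (permutation p = 0.0185, adjusted 0.352). NDUFV3 was at r = -0.49 without the 2 HIGH RFI cows farthest from that group's median share, and limma within HIGH RFI cows called 7 members, all negatively (72.1% of all genes). With values centred on the month, 15 members passed, 14 of them negatively, and 12 also by rho, 11 of those negatively. With month as a factor limma called 17 members negatively (76.7% of all genes) and 1 positively (6.08%).

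**Figure D3:**
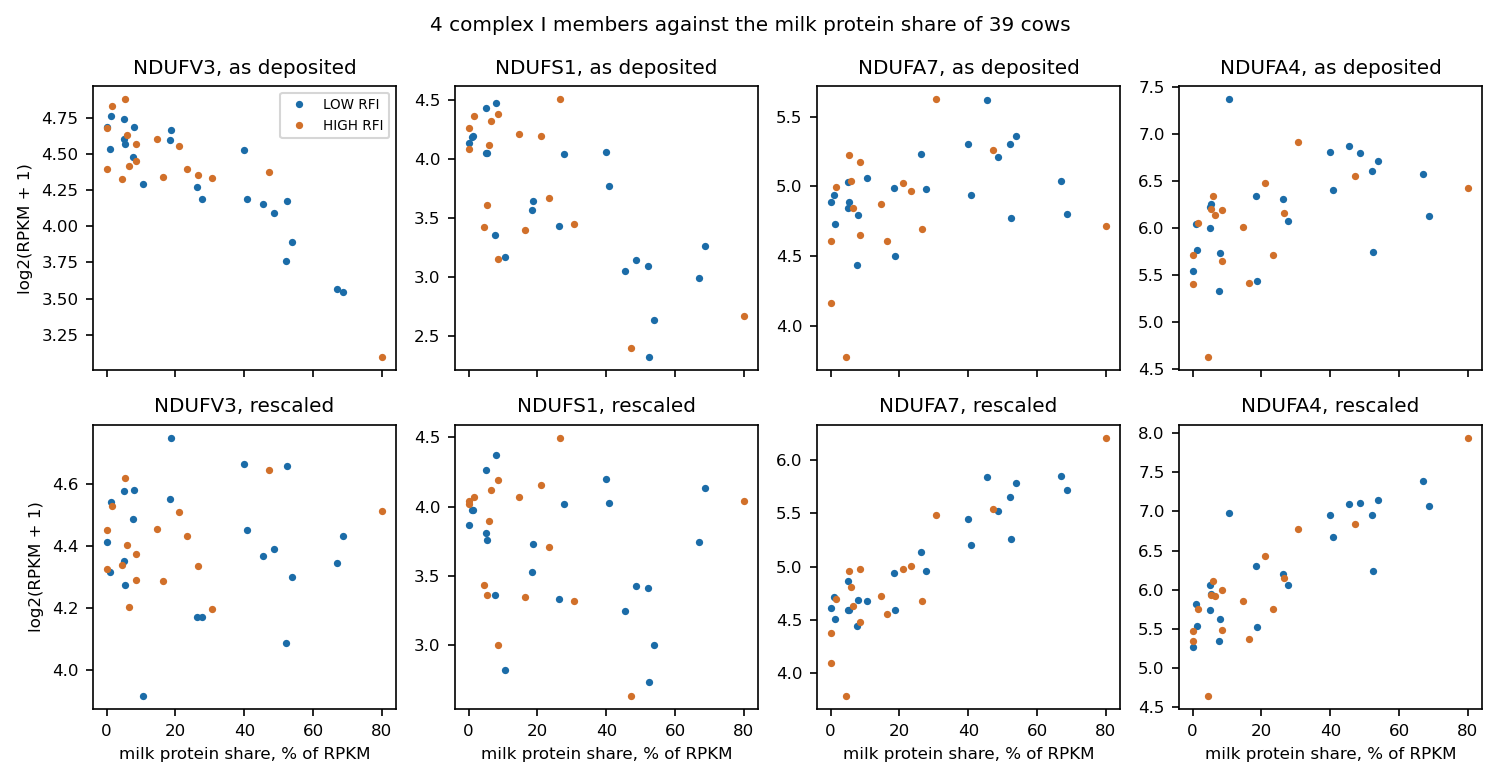
Log2(RPKM + 1) of NDUFV3, NDUFS1, NDUFA7 and NDUFA4 against the share of milk protein genes in all RPKM, 1 point per cow (LOW RFI blue, n = 22; HIGH RFI orange, n = 17), as deposited above and rescaled without the milk protein genes below. NDUFV3 declines as deposited (r = -0.87) and is level after rescaling (r = 0.04), while NDUFA7 and NDUFA4 rise after rescaling (r = 0.89 and 0.84).

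With rescaling without the milk protein genes, 37 of 38 members had a positive r with the milk protein share, against 9 as deposited. Relative to the rest of the RNA, 32 of 38 members rose with the share and 0 fell, 31 of the 32 also by rho. Limma over all tested genes called 32 members positively, against 19% of all genes, and 0 negatively, against 49.5% of all genes. NDUFA7 had the closest relation (r = 0.89, rho = 0.84, both with permutation p = 1e-05, adjusted p = 2.71e-05 for r), and NDUFA4 (r = 0.84, rho = 0.81) and NDUFA3 (r = 0.83, rho = 0.81) followed. NDUFA7 was at 72.9 rescaled RPKM in HIGH RFI 17 and at 19.8 rescaled RPKM in HIGH RFI 12. The 6 members that did not pass were NDUFV3 (r = 0.04), NDUFA9 (r = 0.02), NDUFS1 (r = -0.22), NDUFS8 (r = 0.18), NDUFB8 (r = 0.26) and NDUFAB1 (r = 0.29), with adjusted permutation p between 0.0818 and 0.895 over 39 cows. All 32 kept their sign without HIGH RFI 17 and LOW RFI 18. Within LOW RFI cows 22 passed, all positively and all 22 also by rho, where limma called 22 (15.8% of all genes positively). Within HIGH RFI cows 25 passed, all positively, but 19 by both r and rho, and limma called 23 (13.2% of all genes positively). With values centred on the month 32 passed, all positively, but 25 by both r and rho, and limma with month as a factor called 27 (17.3% of all genes positively). Of the 6 core subunits described above, 4 passed on rescaled values, NDUFS3 with r = 0.68 (rho = 0.75), NDUFV2 with r = 0.51 (rho = 0.44), NDUFS7 with r = 0.40 (rho = 0.40) and NDUFV1 with r = 0.39 (rho = 0.33).

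**Figure D4:**
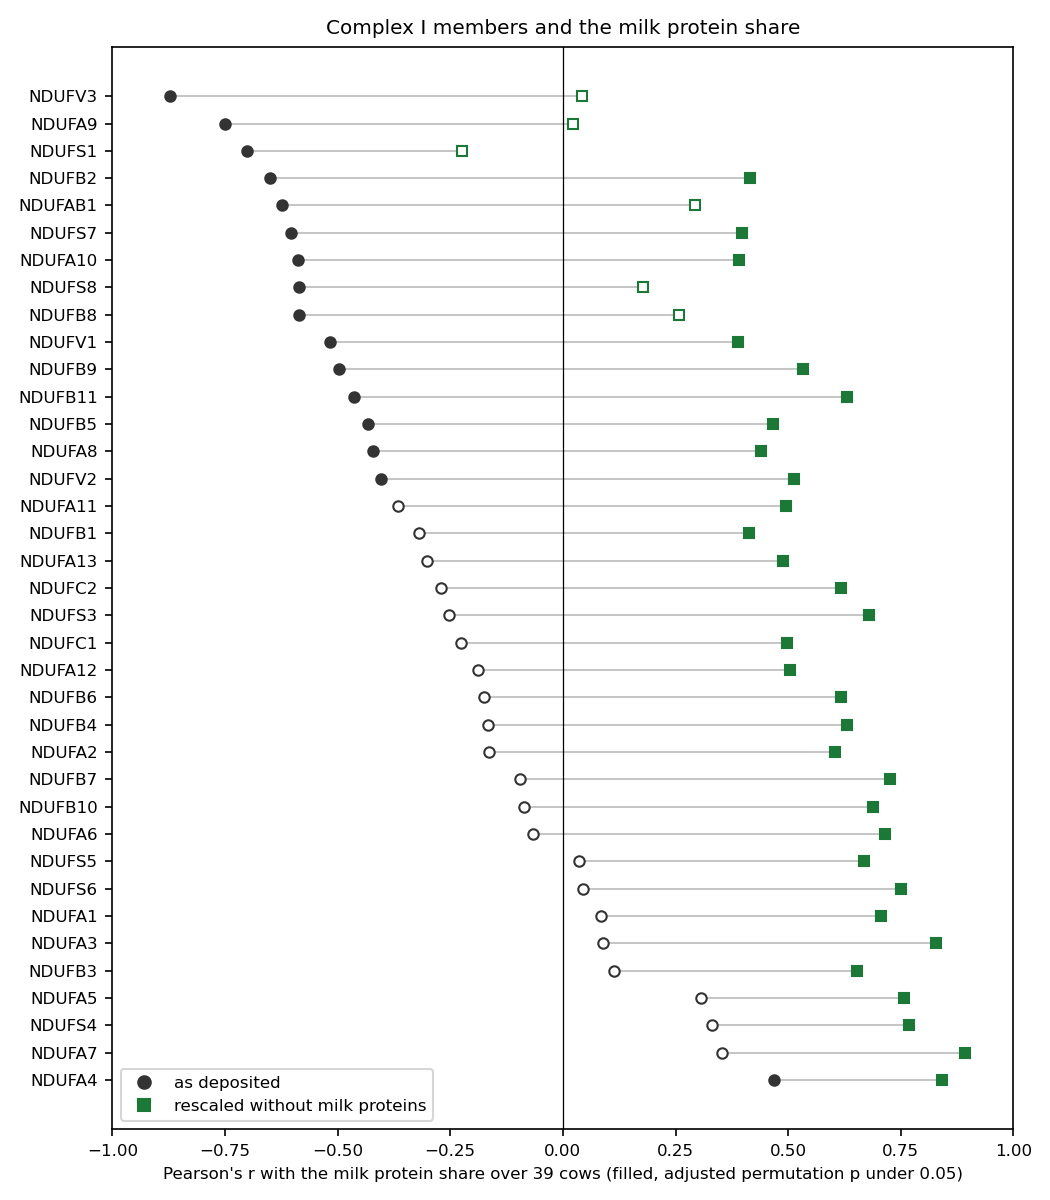
Pearson's r of 37 members with the milk protein share over 39 cows, as deposited (circles) and rescaled without the milk protein genes (squares), filled where the adjusted permutation p is under 0.05. As deposited 16 members are filled, 15 of them left of 0, and after rescaling 31 are filled, all right of 0.

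The neutrophil and macrophage marker scores moved with both the milk protein share and the members. All scores were computed on values as deposited, also where the members were rescaled. The milk protein share thus enters each score through the denominator of RPKM. It thereby enters the relation of a score to the share itself and to rescaled members, and how much it adds was not tested. The macrophage score was related to the milk protein share with r = -0.87 (rho = -0.81, both with permutation p = 1e-05, adjusted over 4 scores 4e-05) and the neutrophil score with r = -0.61 (rho = -0.57, permutation p = 3e-05 and 0.00013, adjusted 6e-05 and 0.00026), over 39 cows and with r = -0.81 and -0.52 without HIGH RFI 17 and LOW RFI 18. The epithelium score had r = 0.31 and rho = 0.48 (permutation p adjusted 0.0528 and 0.00275) and the T cell score r = -0.34 and rho = -0.16 (adjusted 0.0413 and 0.344), so neither passed by both. On rescaled values 34 of 38 members were related negatively to the neutrophil score (28 also by rho) and 23 to the macrophage score (20 also by rho), and 5 positively to the mammary epithelium score (5 also by rho), in permutation tests adjusted over 152 relations. Limma over all tested genes called 34 members negatively with the neutrophil score, against 23% of all genes, 24 negatively with the macrophage score, against 17.3%, and 1 positively with the epithelium score, against 11%. No member was called positively with the neutrophil or macrophage score, against 26% and 49.9% of all genes. As deposited, the neutrophil score was related to 5 members negatively (1 also by rho) and to 1 positively (0 by rho), the macrophage score to 1 negatively and 17 positively (1 and 13 also by rho), the T cell score to 13 positively (1 also by rho), and the epithelium score to 0. On that scale limma called 5 members negatively (8.54% of all genes) and 1 positively (40.8%) with the neutrophil score. With the macrophage score it called 1 negatively (5.98%) and 20 positively (79.8%), with the T cell score 18 positively (51.9%), and with the epithelium score none (11.6% in either direction). NDUFA4 was the member most negatively related to the macrophage score on both scales (r = -0.45 as deposited, -0.80 rescaled), and NDUFV3 the most positively related as deposited (0.84). What part of the relation of the members to milk protein RNA goes with the share of these cells was not tested.

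The genes outside the complex that followed the members most closely were chosen by their correlation with the members' mean over 39 cows on rescaled values, among 10598 tested genes. The 10 closest were SMIM4 (r = 0.94), an assembly factor of complex III, CDKN2AIPNL, ATP5IF1, the inhibitor of ATP synthase, gene:ENSBTAG00000039555, COX5B and UQCR10, subunits of complexes IV and III, MRPL34, a protein of the mitochondrial ribosome, PFDN1, a subunit of the chaperone prefoldin, NME2, a nucleoside diphosphate kinase, and PTS (r = 0.92), an enzyme of tetrahydrobiopterin synthesis. Among those that ran most against the members were SUPT6H (r = -0.88), NUP98, C2CD3 and MARCHF6 (r = -0.87). These 4 were near 0 as deposited, between -0.02 (NUP98) and 0.04 (SUPT6H), while the 10 closest had r between 0.80 and 0.96 as deposited, and 3 of them were among the 10 closest there.

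Other genes of the respiratory chain had no member that passed, with 0 called in every list by limma-trend as deposited, rescaled and quantile normalized, although array weights gave calls named below. The 7 mitochondrial genome subunits of complex I, the core of its membrane arm, had medians over cows between 100.5 RPKM (ND4L) and 1003 RPKM (ND3), and all 7 had a lower fitted level in LOW RFI cows, with a median log2 difference of -0.35 (-0.12 over all genes), -0.24 after rescaling and -0.20 after quantile normalization with all 7 lower in each. The median was -0.17 with marker scores as covariates, with all 7 lower, and -0.12 without the 8 marked libraries (-0.016 over all genes), with 6 of 7 lower. With month as a factor 6 of 7 were lower, at a median of -0.32. With array weights limma called 20.6% of all genes as lower in LOW RFI cows, among them ND4, ND4L and also ND2, a gene picked on seeing its value. ND4L averaged 96.8 ± 52.3 RPKM in LOW RFI cows (SD, n = 22), against 140.8 ± 71.1 RPKM in the HIGH RFI group (SD, n = 17), and its log2 difference was -0.49 (SE 0.29, with an unadjusted p of 0.0993 and an adjusted p of 0.769 by limma), and ND4 was at -0.43 (SE 0.30). The mean of these 7 had a correlation of 0.55 with the mean of the nuclear members as deposited and of -0.28 after rescaling, over 39 cows. For the nuclear subunits of complexes III, IV and V the same correlations were 0.95, 0.98 and 0.97 as deposited and 0.93, 0.98 and 0.97 after rescaling. They were lower for complex II, at 0.72 as deposited and 0.50 after rescaling, and for the assembly factors of complex I, at 0.85 and 0.77. These means hide differences within a list. After rescaling, single subunits of complex V ran between -0.22 (ATP5F1B) and 0.91 (ATP5MF) with the members' mean. All these correlations are given as a description of 39 libraries, with no test between them.

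Of 17 tested assembly factors of complex I, 6 were higher and 11 lower in LOW RFI cows, with a median log2 difference of -0.022, but 13 were higher after rescaling and 15 after quantile normalization. Their medians over cows lay between 1.12 RPKM (NDUFAF5) and 33.1 RPKM (NDUFAF3), and NUBPL did not pass the filter. NDUFAF7, a methyltransferase, had the smallest p (-0.22, SE 0.15, with an unadjusted p of 0.157 by limma), followed by NDUFAF6 (-0.17, SE 0.13), and array weights called both. All 4 subunits of complex II were lower in LOW RFI cows as deposited and rescaled and 2 after quantile normalization, with SDHC at -0.28 (SE 0.15, with an unadjusted p of 0.0784 and an adjusted p of 0.769 by limma) and SDHD, which array weights called, at -0.29 (SE 0.18). In complex III, 4 of 9 were higher (7 rescaled, 8 quantile normalized), with CYC1 at -0.17 (SE 0.19) and UQCRH at 0.15 (SE 0.19). In complex IV, 4 of 8 were higher (7 rescaled, 8 quantile normalized), with COX7B at 0.20 (SE 0.16) and COX5A at -0.14 (SE 0.17). In complex V, 7 of 15 were higher (12 rescaled, 13 quantile normalized), with ATP5F1E at 0.17 (SE 0.16) and ATP5F1B at -0.20 (SE 0.20). Without the marked libraries, 12 of 17 assembly factors, 5 of 9 genes of complex III, 3 of 8 of complex IV and 8 of 15 of complex V were higher in LOW RFI cows. Of the regulators of mitochondrial biogenesis, 10 of 10 tested were lower in LOW RFI cows as deposited, with a median of -0.22, where 73% of all genes were lower. With rescaling 9 were lower (median -0.14), with quantile normalization 7 (-0.078), with month as a factor 6 (-0.17), with marker scores 6 (-0.087) and without the marked libraries 7 (-0.12). PPARGC1A did not pass the filter. GABPA, a transcription factor that binds promoters of respiratory chain genes, averaged 2.80 ± 1.26 RPKM in LOW RFI cows (SD, n = 22), against 4.58 ± 2.51 RPKM in the HIGH RFI group (SD, n = 17), and its log2 difference was -0.44 (SE 0.21, with an unadjusted p of 0.0418 and an adjusted p of 0.769 by limma). TFAM, which packs mitochondrial DNA, was at -0.43 (SE 0.21, with an unadjusted p of 0.0433 and an adjusted p of 0.769 by limma), and GABPB1, the partner of GABPA, at -0.35 (SE 0.17, with an unadjusted p of 0.0476 and an adjusted p of 0.769 by limma). Array weights called these 3 and also PPARGC1B and TFB2M, 5 of 10, all lower in LOW RFI cows, against 20.6% of all genes. GABPB1, PPARGC1B and TFB2M were picked on seeing their values. The mean of the regulators had a correlation with the members' mean of 0.29 as deposited and of -0.56 after rescaling.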

How the data were processed

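RNA of milk somatic cells was sequenced from 39 cows by Trizol extraction and TruSeq RNA libraries, per the labels' protocols. The authors deposited RPKM per gene, per the file headers, on build ARS-UCD 1.2, per the submitters' processing notes; the aligner, counter, annotation and strand setting were not given in the sources used here. Rows sharing a symbol (135) were summed, leaving 21590 genes. Gene lengths and reads were recovered from the steps of the RPKM values, with the smallest length that made a feature's reads whole. Reads were whole within 0.02, plus the rounding of the values, for 19616 of 19616 features above 0. For features above 0 in few cows the search alone can find such a length. Of 16236 features above 0 in at least 20 cows, 16236 came out whole. Recovered values served for depth, length and a limma-voom alternative.

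Limma-trend (limma 3.58.1, R 4.3.3, empirical Bayes with trend and robust settings) was fitted on log2(RPKM + 1) for genes that reached 1 RPKM in 17 or more cows, with group only, and p-values were adjusted by Benjamini-Hochberg over all 10636 genes (threshold 0.05). The pseudocount of 1 understates differences of low genes. Rescaled values are RPKM divided by each library's RPKM outside the 7 milk protein genes and brought back to a common total. Relations used two-sided permutation tests with 100000 resamples, adjusted over the members; for the share over all genes, limma-trend was fitted with the milk protein share or a marker score as a continuous term and adjusted over all tested genes. The scripts were tested on simulated data. Genes with full values are the 3 of highest and of lowest level, the 3 of smallest p in each direction, the 3 of largest and of smallest SD, NDUFAB1 and NDUFA4; in other lists the 2 of smallest p; in likeness the 10 highest and 5 lowest r. Members, lists and tests were chosen with earlier results of these data known. Alternatives were other scalings, pseudocounts, filters, covariates, weights and libraries left out. Of the genes that the rule names, 1 member and 1 gene of the likeness list are not reported here, though counts over the members include all 38. No sequences or coordinates are printed.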

Additional observations from a re-analysis of the deposited data

How the results depend on the processing

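The count of members called between LOW RFI and HIGH RFI cows was 0 in limma-trend and in each alternative run, including without each of the 39 libraries in turn. The members' median log2 difference ran from -0.043 without HIGH RFI 11 to 0.064 without HIGH RFI 10 and was below 0 in 4 of these 39 fits, without LOW RFI 19 (-0.0020), HIGH RFI 1 (-0.0065), HIGH RFI 11 and HIGH RFI 17 (-0.023); genes called over the whole table ranged from 0 to 0. Array quality weights moved that count to 2213. Of 140 values for 14 named members under 10 alternatives, 126 kept direction and side of the threshold. The other 14 reversed, from limma-trend differences between -0.11 (NDUFV3) and 0.12 (NDUFA12). These were NDUFS3 (0.093) and NDUFV3 (0.027) with quantile normalization; NDUFS3 (0.065) with rescaling; NDUFB7 (-0.018), NDUFAB1 (-0.030) and NDUFS4 (-0.037) with month as a factor; NDUFB7 (-0.020), NDUFV3 (0.0034) and NDUFS4 (-0.053) with marker scores; NDUFB7 (-0.062) and NDUFAB1 (-0.017) without the 4 libraries that stood apart; and NDUFB7 (-0.0011), NDUFAB1 (-0.023) and NDUFA12 (-0.0076) with array weights. The cause was not tested. As deposited, 16 members were related to the milk protein share by permutation, 15 of them negatively, and 20 by limma over all genes. With rescaling the relation changed direction, and 32 members passed by permutation and by limma, all positively. By permutation 32 passed with rescaling and month centring and 25 with rescaling within HIGH RFI cows, all positively. Within HIGH RFI cows as deposited 1 passed, negatively. Leaving out each library, the rescaled spread, the relations within groups on rescaled values, the month-centred relations, those with marker scores and the limma fits of a continuous term were chosen after seeing the data. No paired analysis was possible because replicate numbers only name cows in label order. Depth did not limit the members, each with at least 531 reads in every cow.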
